A study of Mus musculus with 39 samples.

Results

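The livers described here are 28 Western diet livers, of 39 livers in all, chosen by and ordered on how much globin messenger RNA they held. The order was set by the summed CPM (the usual scaling of a gene's count by the library's total count) of 4 adult globin genes: Hba-a1 and Hba-a2, which encode alpha chains of haemoglobin, and Hbb-bs and Hbb-bt, which encode beta chains. The 9 livers with the highest sum and the 9 with the lowest are called the high and the low livers, and the 10 between them the middle livers. Because globin counts made these groups, no globin gene was tested between them. The groups are no treatment of the study, and the p-values below measure how far a gene follows the ranking, not an effect of a condition.

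The livers came from male mice that lacked CD163 in the whole body (CD163tm1(KOMP)Vlcg allele, C57BL/6NTac background) and from their wildtype littermates. From 6 weeks of age they received a Western diet and drinking water with fructose for 8 weeks (15 of each genotype) or chow (5 wildtype, 4 knockout). RNA from snap-frozen tissue gave 1 library per mouse, named here by genotype, diet and the replicate letter of the labels. The labels do not say whether livers were perfused or rinsed before freezing. The ranking left out wildtype Western diet A and knockout Western diet M, whose cholesterol synthesis genes (mean 7.15 and 7.16 log2 CPM) lay above the highest ranked liver (6.41) and within the chow range. Wildtype chow A and knockout chow D (5.44 and 5.50) lay among the ranked Western diet livers on the same genes, so results on chow are also given without them. Library totals of the ranked livers were 8578865 to 30438808 counts. Alb, the albumin gene of hepatocytes, was at 17507 to 48009 CPM in the ranked livers as in liver.

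Haemoglobin is made by erythroblasts, and the red cells they give rise to lose their nucleus but carry leftover globin transcripts for some time. A liver sample therefore holds globin RNA from blood in its vessels and from any blood-forming cells in the tissue. Liver sinusoids, the wide capillaries of the organ, are lined by a fenestrated endothelium that clears material from blood through scavenger receptors. Free haemoglobin is bound by haptoglobin and the complex is taken up by CD163 on macrophages, among them the Kupffer cells of the sinusoid.

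The copies within each globin pair are nearly identical in their coding sequences, which are shown around the positions where they differ because reads over them can tell the copies apart. Untranslated regions were not compared. The sequences come from GENCODE M21 transcripts (GRCm38), numbered from the first base of the start codon, with the differing base in capitals. Hba-a1 and Hba-a2 are separated by the single substitution C381T, and Hbb-bs and Hbb-bt by C417T. Both pairs were 99.8% identical over the coding sequence.
Hba-a1: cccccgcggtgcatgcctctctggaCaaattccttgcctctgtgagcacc
Hba-a2: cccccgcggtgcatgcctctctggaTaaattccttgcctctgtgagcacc
Hbb-bs: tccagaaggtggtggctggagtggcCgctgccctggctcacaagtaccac
Hbb-bt: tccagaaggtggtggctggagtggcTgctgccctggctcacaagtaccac
The longest identical stretch of the alpha pair was 380 bases. How reads that fit both copies were counted is not given in the sources used here, so the split within a pair is uncertain and the sum was used.

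The globin sum spanned 50.8-fold over the 28 livers, from 2.18 CPM in knockout L to 110.5 CPM in knockout D. The high livers lay between 68.0 and 110.5 CPM (median 76.5), the middle livers between 7.45 and 56.4 (median 22.3) and the low livers between 2.18 and 7.30 (median 5.86). These sums rested on 609 to 1832 counts per high liver and 39 to 108 per low liver, at most 0.0111% of a library. At the upper threshold knockout K was inside at 68.0 CPM and knockout A outside at 56.4. At the lower one knockout N was inside at 7.30 CPM and knockout H outside at 7.45, so the lower threshold does not fall in a gap.

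Hbb-bs carried the most of the sum, with 61.9% of the CPM summed over the ranked livers, and Hba-a1 followed with 29.6%. Hbb-bt held 6.62% and Hba-a2 1.85%. In the high livers Hbb-bs was at 38.5 to 78.5 CPM and Hba-a1 at 16.9 to 33.5 CPM. In the low livers they were at 1.23 to 4.39 and 0.752 to 2.53 CPM. The 4 genes ordered the 28 livers alike, with Spearman's rho from 0.858 for Hbb-bs with Hbb-bt to 0.959 for Hba-a1 with Hbb-bs, as a description of genes that share libraries and, within a pair, reads. Ranking by the beta genes alone gave the same 9 high and 9 low livers, and ranking by the alpha genes alone kept 8 of each.

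**Figure D1:**
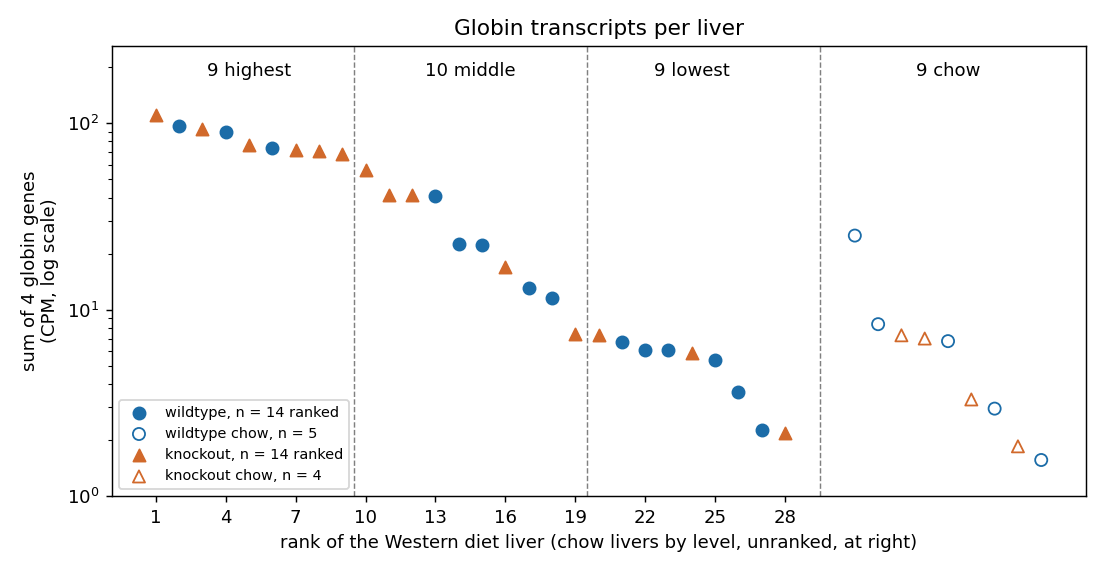
Sum of the 4 globin genes in CPM (log axis) for each liver, with the 28 ranked Western diet livers in order of rank and the 9 chow livers at the right; circles are wildtype and triangles knockout mice. The sum falls from 110.5 to 2.18 CPM in uneven steps, such as from 40.6 to 22.5 CPM within the middle livers. It goes from 68.0 to 56.4 CPM at the upper dashed threshold and from 7.45 to 7.30 CPM at the lower one. Chow livers lie between 1.56 and 24.998 CPM.

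Both genotypes held high and low livers. The high group had 3 wildtype and 6 knockout livers and the low group 6 wildtype and 3 knockout livers. The mean log2 globin sum was 4.86 ± 1.81 (SD, n = 14) in knockout and 3.88 ± 1.77 (n = 14) in wildtype livers. The difference of 0.99 did not pass a 2-sided permutation test with 100000 resamples (p = 0.154), and both genotypes covered nearly the whole range. Library numbers had a median of 410 in the high and 430 in the low livers, and their ranges overlapped. The order of the libraries thus moved with the ranking and with genotype, and with library number as a term no gene was called by edgeR (861 at an unadjusted p under 0.05), while 30 of 30 sinusoidal endothelial genes stayed on the lower side (median log2 difference -0.54 between high and low livers) and Bpgm stood at 0.43. Chow livers, which the ranking did not use, were at 1.56 to 24.998 CPM (median 6.79), and only wildtype E among them exceeded 10 CPM.

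Slc4a1, the anion exchanger of the red cell membrane (band 3), rose with the globins at very low counts. It had 59 counts in the high livers, 2 to 14 in each, and 5 in the low livers, with 0 in 6 of 9. The summed levels were 0.468 CPM (exact 95% Poisson interval 0.356 to 0.604) and 0.0362 CPM (0.0117 to 0.0844), intervals that cover counting error alone. The highest low liver, with 3 counts, overlapped the lowest high one. Slc4a1 lay under the filter on low counts. In the edgeR fit without that filter, where 30 of 32294 genes were called, it had a log2 difference of 3.75 (SE 0.60, adjusted p = 0.0025). In the middle livers it was at 0 to 0.473 CPM (median 0.0910).

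Other genes of the lineage under the filter were mixed. Trim10, a protein of late erythroblasts, had 15 in the high and 2 in the low livers. In all, 23 of the red cell and erythroblast genes reported here lay under the filter. Of these, 12 had more counts in the high and 4 more in the low livers, and 7 had 0 in all 18. Of the erythroblast and progenitor list, Gata1 had 5 and 2 counts, Gfi1b 0 and 1, and Icam4 and Cldn13 0 in both groups, whereas Nfe2 had 55 and 53 and Myb 17 and 15. The exact 95% interval of a count of 0 reaches 0.0293 CPM in the summed high and 0.0267 CPM in the summed low livers. The embryonic globins Hbb-bh1, Hbb-y and Hba-x were at 0 in all 18 livers as well.

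**Figure D2:**
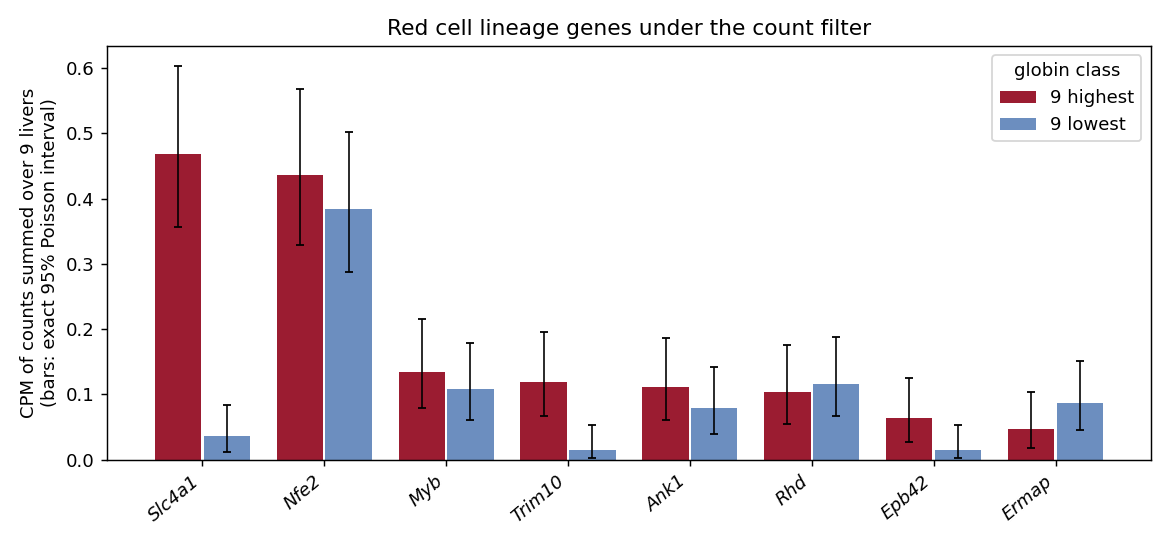
Level in CPM of the counts summed over the 9 high and the 9 low livers, for the reported red cell and erythroblast genes under the count filter that had at least 10 counts in all; error bars are exact 95% Poisson intervals of the summed count. The intervals of Slc4a1 and Trim10 are apart between the groups, whereas Nfe2, Myb, Ank1, Rhd and Ermap have overlapping intervals. They cover counting error alone and not the spread between mice.

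Among genes of the red cell list with enough counts for the main test, Bpgm came closest to a call. It encodes the enzyme that makes 2,3-bisphosphoglycerate, which lowers the oxygen affinity of haemoglobin. Bpgm was at 12.7 to 19.4 CPM (median 17.2) in the high, 11.4 to 16.2 CPM (median 14.2) in the middle and 9.21 to 13.4 CPM (median 11.4) in the low livers. In the low livers Bpgm thus lay above the whole globin sum (2.18 to 7.30 CPM). Which cells the Bpgm RNA came from was not tested. The lowest of the high livers overlapped the highest of the low ones, and 9 of 9 high livers lay above the low median. Its log2 difference was 0.56 (SE 0.10), and with an edgeR adjusted p = 0.0517 it missed the threshold of 0.05. It passed in 10 of 32 alternatives, with adjusted p from 3.46e-04 in DESeq2 to 0.495. Over the 28 livers it had the highest Spearman correlation with the globin sum among genes at 1 CPM or more (0.73), as a description.

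The other 24 tested red cell genes showed little. Of 25 tested, 18 had positive and 7 negative log2 differences, with a median of 0.058 against -0.0036 over all genes tested. None was called (background 0.00732% in either direction), and 4 had an unadjusted p under 0.05, all positive. Alas2, the erythroid enzyme that starts haem synthesis, was at 101.8 to 150.9 CPM (median 126.7) in high and 90.5 to 137.7 CPM (median 108.0) in low livers (0.23, adjusted p = 0.422). In the low livers Alas2 thus lay far above the whole globin sum (2.18 to 7.30 CPM), and on chow it was at 71.0 to 114.9 CPM. Which cells the Alas2 RNA came from was not tested. Sptb, beta-spectrin, stood at 0.47 and Tent5c at 0.55, with overlapping groups. The erythroblast list had 7 of 18 tested members on the positive side (median -0.055), and none was called. Klf1, the master factor of late erythroid genes, was at 2.44 to 6.39 CPM (median 4.95) in high and 2.38 to 5.60 CPM (median 4.50) in low livers (0.15, adjusted p = 0.882). In the low livers Klf1 thus lay within the range of the whole globin sum, and the cells its RNA came from were not tested either. Tal1, a factor of blood and endothelial lineages, was at 0.948 to 2.54 against 1.15 to 2.76 CPM (-0.46, adjusted p = 0.656). The member of the erythroblast list with the smallest p, Aqp1, was on the lower side. Aqp1 is a water channel of red cells that vessel lining also makes. Car1, a carbonic anhydrase of red cells, was at 0.43 (adjusted p = 0.469) and Abcb10, a mitochondrial transporter of the erythroid lineage, at 0.31 (adjusted p = 0.342).

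The one gene called between high and low livers was lower with more globin. Flt4 (ENSMUSG00000020357) encodes VEGFR-3, a receptor for vascular growth factors that sinusoidal and lymphatic endothelium carry. It was at 12.99 to 21.7 CPM (median 15.2) in the high, 8.86 to 36.8 CPM (median 22.6) in the middle and 20.996 to 31.7 CPM (median 26.0) in the low livers. Of the high livers, 8 of 9 lay below every low liver and 9 of 9 below the low median, while the middle livers spanned both groups. The log2 difference was -0.76 (SE 0.11, edgeR adjusted p = 0.0101). It was the only call among 13661 genes tested, or 0.00732%, although 1040 genes had an unadjusted p under 0.05, 375 higher and 665 lower. The difference was as large with library number as a term (-0.75), but the call was then lost (adjusted p = 0.171). The call was also lost with 7 livers a group (adjusted p = 0.166) and without wildtype D (0.0532) or wildtype E (0.0755).

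Genes that share the sinusoidal endothelium with Flt4 stood on the same side. All 30 members of a list of sinusoidal endothelial genes had negative log2 differences, with a median of -0.54 against -0.0036 over all genes. Of these 30, 27 had an unadjusted p under 0.05, against 4.87% of all genes on the lower side, but only Flt4 passed the adjusted threshold (background 0.00732%). The 30 genes share a cell type and are not independent. In bulk tissue, fewer endothelial cells and less RNA per endothelial cell cannot be told apart.

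Scavenger receptors lay low in the high livers. Stab1, stabilin-1, was at 43.5 to 68.8 CPM (median 55.0) in high and 64.7 to 95.7 CPM (median 81.3) in low livers, with 8 of 9 high livers below every low one (log2 difference -0.59, SE 0.11, adjusted p = 0.0517). Stab2, stabilin-2, was at 53.1 to 68.3 against 66.1 to 80.0 CPM (-0.31, adjusted p = 0.0877). Lyve1, a hyaluronan receptor, was at 5.19 to 12.5 against 11.7 to 14.1 CPM (-0.56, adjusted p = 0.0971). These 3 pairs of ranges overlap at their edges and none of the genes passed the threshold.

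In 6 genes every high liver lay below every low liver, 0.0439% of genes tested, and none had the opposite pattern. They were Cdh5, Gpr182, Clec4g, Dnase1l3, Ramp2 and Aqp1, of which the first 4 belong to the endothelial list. Cdh5, the VE-cadherin of endothelial junctions, was at 11.2 to 22.6 CPM (median 18.5) in high and 26.2 to 31.4 CPM (median 26.9) in low livers (-0.68, SE 0.12, adjusted p = 0.0517). Gpr182, a chemokine-scavenging receptor of sinusoids, was at 11.97 to 23.6 against 25.1 to 29.4 CPM (-0.53, adjusted p = 0.0877). Clec4g, a lectin of sinusoidal cells, was at 25.9 to 45.2 against 45.5 to 65.3 CPM (-0.45, adjusted p = 0.107). Dnase1l3, a secreted nuclease, was at 23.5 to 46.9 against 47.5 to 61.2 CPM (-0.49, adjusted p = 0.161). Clec4g and Dnase1l3 are divided by less than 1 CPM, whereas Cdh5 has a gap of over 3 CPM. Ramp2, part of the adrenomedullin receptor of vessels, was at 5.15 to 7.92 against 8.55 to 12.3 CPM (-0.55, adjusted p = 0.0660). Aqp1 was at 17.8 to 52.1 against 53.2 to 71.3 CPM (-0.57, adjusted p = 0.214).

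**Figure D3:**
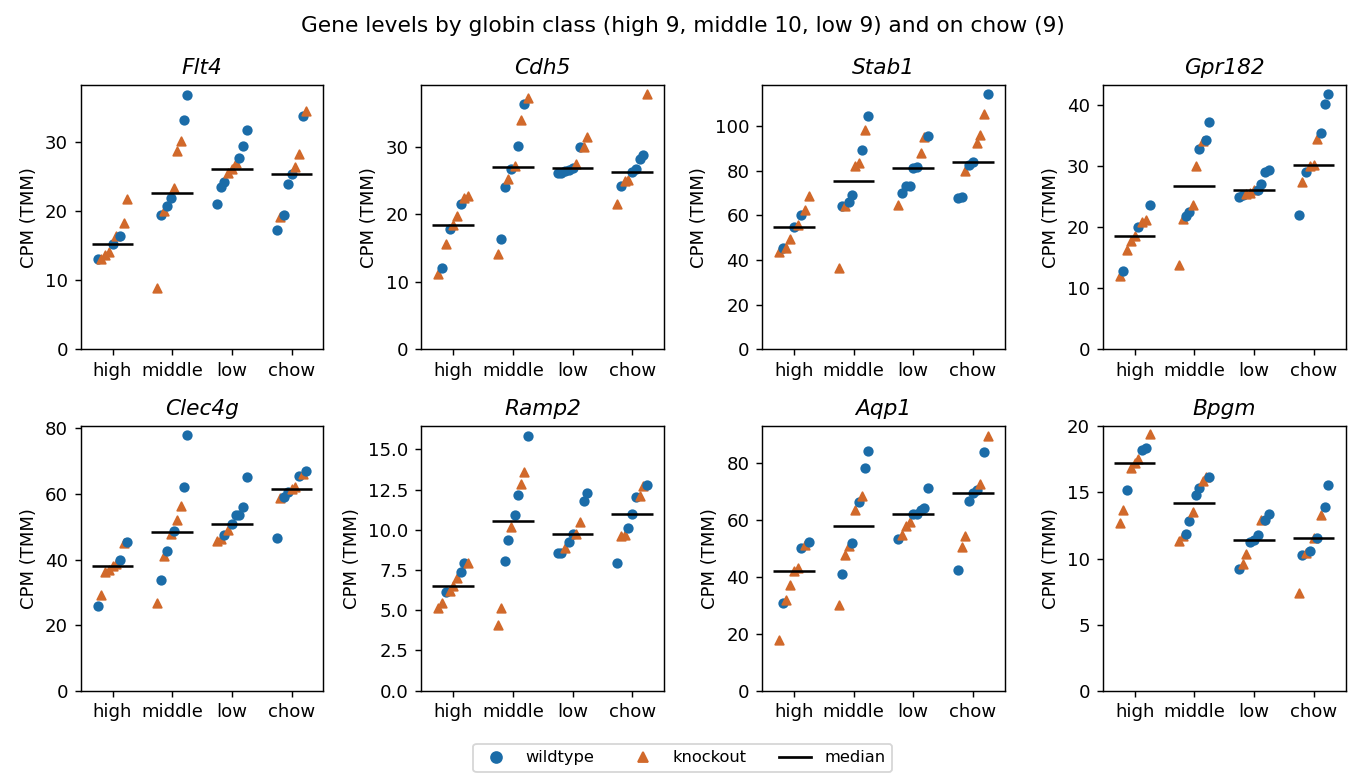
CPM scaled by TMM for 8 genes in the high (9), middle (10) and low (9) globin livers and in 9 chow livers, 1 point per liver, circles wildtype and triangles knockout, with a line at the median. In Cdh5, Gpr182, Clec4g, Ramp2 and Aqp1 the high livers all lie below the low ones, in Flt4 and Stab1 nearly all do, and Bpgm runs the other way.

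Receptors and signals of the endothelium gave like values. Kdr, VEGFR-2, was at 14.4 to 28.3 CPM in high and 24.97 to 37.0 CPM in low livers (-0.56, adjusted p = 0.0919), and Pecam1, the CD31 adhesion molecule, at 9.28 to 19.1 against 16.5 to 21.7 CPM (-0.54, adjusted p = 0.0660). Oit3 stood at -0.71, Mmrn2 at -0.59 and Egfl7 at -0.56 (each adjusted p = 0.0660). Wnt2, a Wnt ligand that central sinusoids send to hepatocytes, was at 1.76 to 4.29 against 3.52 to 6.73 CPM (-0.82, adjusted p = 0.123). Bmp2 and Bmp6, the endothelial ligands that set hepcidin in hepatocytes, were at -0.48 (adjusted p = 0.267) and -0.32 (adjusted p = 0.679). None of these passed.

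Of the 40 genes with an adjusted p under 0.10, 38 were lower in the high livers. Besides list members they held further vessel genes, which were chosen here after their values were seen: Plxnd1, a semaphorin receptor (-0.46), Esam, an endothelial junction molecule (-0.59), Dll4, a Notch ligand (-0.91), Hspg2, perlecan of the basement membrane (-0.62), and Acer2, a ceramidase (-0.60). The 2 genes on the higher side were Bpgm and Il22ra1, a receptor chain for interleukin-22, at 1.05 to 5.53 against 0.374 to 3.15 CPM (1.22, adjusted p = 0.0928). Pacs1, a trafficking protein, had the lowest Spearman correlation with the globin sum over 28 livers (-0.74), followed by Flt4 (-0.70).

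Promoters of the endothelial genes were read for a motif of ETS factors, a family that works in endothelial cells, because the genes moved together. The motif searched was GGAAGT on either strand (ACTTCC on the printed one), in the 250 bases before the start. Shorter forms of it, such as GGAA, were not counted. RefSeq promoters (GRCm38.p6) were at hand for 19 of the 30 genes, and 7 of these (36.8%) held it, against 23.2% of the promoters of all genes tested that had one. A match is a description of letters, not of a bound site. Egfl7, with 2 matches in capitals, and Flt4, with none in this window, are shown as the member with the most matches and the gene called.
Egfl7 (chr2:26580833-26581082, plus strand): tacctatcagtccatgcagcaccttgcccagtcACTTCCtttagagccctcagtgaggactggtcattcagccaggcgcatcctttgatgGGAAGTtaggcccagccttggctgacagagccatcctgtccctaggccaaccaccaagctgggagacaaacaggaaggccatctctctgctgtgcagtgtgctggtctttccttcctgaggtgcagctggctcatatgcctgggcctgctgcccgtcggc
Flt4 (chr11:49609429-49609678, plus strand): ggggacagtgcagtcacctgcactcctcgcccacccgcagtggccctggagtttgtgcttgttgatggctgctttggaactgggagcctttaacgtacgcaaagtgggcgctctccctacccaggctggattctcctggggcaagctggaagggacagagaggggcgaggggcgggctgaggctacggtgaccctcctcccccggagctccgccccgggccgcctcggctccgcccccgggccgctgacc

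The lower endothelial level held in both genotypes. In wildtype livers the 3 high lay below the 6 low on average in 30 of 30 endothelial genes (median log2 difference -0.56), and in knockout livers the 6 high below the 3 low in 30 of 30 (median -0.46). The mean level of the list was 3.71 to 4.47 log2 CPM in the high (median 4.16), 3.75 to 5.06 in the middle (median 4.54) and 4.33 to 4.80 in the low livers (median 4.60). High and low livers overlapped by this mean only through wildtype L among the low (4.33) and knockout J among the high livers (4.47). Over the 28 livers the list mean had a Spearman correlation of -0.65 with the globin sum (-0.60 over 14 wildtype and -0.56 over 14 knockout livers), as a description of libraries that share depth and order.

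As a slope on the log2 globin sum over all 28 livers, which are largely the same libraries, no gene was called of 13759 (background 0%), with 1030 at an unadjusted p under 0.05 and 2 calls with limma voom. All 30 endothelial genes had negative slopes, with a median of -0.11 log2 units per doubling of the globin sum. Flt4 had a slope of -0.16 (SE 0.04, adjusted p = 0.548) and Bpgm of 0.12 (SE 0.02, adjusted p = 0.0656). In the 10 middle livers, which the division into high and low does not use, 29 of 30 slopes were negative with a median of -0.19, but none had an unadjusted p under 0.05. There no gene was called of 13971 (background 0%), and 1278 had an unadjusted p under 0.05. Knockout E, with the lowest endothelial mean of the middle livers (3.75), moved the median from -0.19 to -0.12, with 28 of 30 negative without it. Other lists leaned the same way in the middle livers: 27 of 27 stellate and matrix genes (median slope -0.27, 9 at an unadjusted p under 0.05), 14 of 14 large vessel genes (-0.24), 21 of 23 Kupffer cell genes (-0.26), 14 of 14 monocyte and dendritic cell genes (-0.32), 10 of 10 neutrophil genes (-0.40) and 30 of 30 ribosomal protein genes (-0.13, 15 at an unadjusted p under 0.05) had negative slopes, so the lean there was not particular to endothelium.

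In chow livers the endothelial genes were split. Of the 30 endothelial genes 16 had negative slopes over 9 chow livers, with a median of -0.010, and 13 of 30 without wildtype A and knockout D (median 0.018). Flt4 had a slope of 0.023 (SE 0.093) there. No gene was called of 14102 (background 0%, 2.90% at an unadjusted p under 0.05), and the globin sums cover a narrower range, with wildtype E alone above 10 CPM. A difference in slope between the diets was not tested. Between the genotypes on Western diet it was, and no gene was called of 13759 (324 at an unadjusted p under 0.05).

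**Figure D4:**
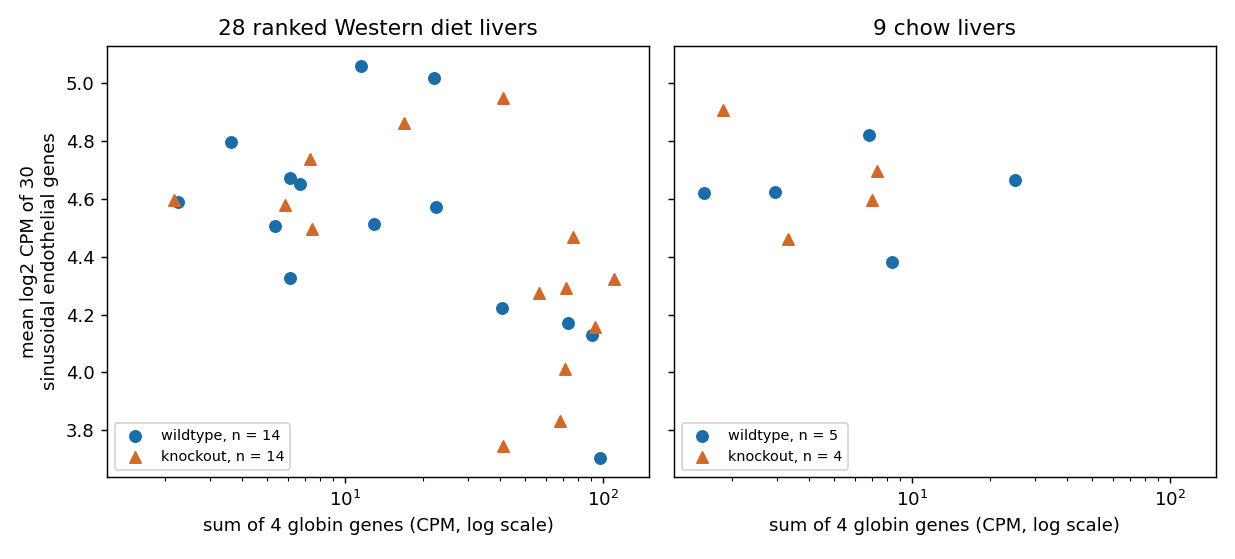
Mean log2 CPM of 30 sinusoidal endothelial genes against the globin sum in CPM (log axis), 1 point per liver, for 28 ranked Western diet livers (left) and 9 chow livers (right), circles wildtype and triangles knockout. On Western diet the 9 high livers lie between 3.71 and 4.47, below most others, whereas the chow livers lie between 4.38 and 4.91 with no slope to be seen.

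Lists of other vessel and matrix cells leaned the same way. Of 14 genes of large vessels and smooth muscle 13 were on the lower side (median -0.38, 7 at an unadjusted p under 0.05, none called), with Vwf, the clotting factor of vessel lining, at 5.84 to 23.1 CPM in high and 11.8 to 22.8 CPM in low livers (-0.80, adjusted p = 0.256) and Efnb2, the arterial ephrin, at -0.59 (adjusted p = 0.441). Of 27 stellate cell and matrix genes 25 were on the lower side (median -0.27, 8 at an unadjusted p under 0.05, none called). Ecm1, a matrix protein of stellate cells, was at 115.4 to 193.8 CPM in high and 146.1 to 221.7 CPM in low livers (-0.45, adjusted p = 0.0919), and Sparc, a matrix protein, at 44.7 to 89.9 against 71.8 to 111.9 CPM (-0.49, adjusted p = 0.168). Hgf (-0.17) and Reln (-0.11) of the same cells overlapped widely. Kupffer cell genes had 18 of 23 on the lower side (median -0.20, none called), but by genotype 20 of 23 were lower in knockout and 6 of 23 in wildtype livers, a difference that was not tested. Genes of blood cells other than red cells gave no call either: 6 of 9 platelet and 10 of 11 monocyte and dendritic cell genes were on the lower side (medians -0.13 and -0.18), and 5 of 7 neutrophil genes on the higher (0.12).

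Hepatocyte genes were near level, with 17 of 27 on the higher side and a median of 0.087. Acute phase genes, which hepatocytes make in inflammation, had 27 of 30 on the higher side (median 0.24, none at an unadjusted p under 0.05). That list spanned 6.64 to 9.75 log2 CPM in the high and 6.58 to 9.12 in the low livers. Without wildtype G the median was -0.035. Wildtype G stood out among the high livers, and wildtype L, M and N (8.42 to 9.12) among the low ones. Cell cycle genes had 20 of 27 on the higher side (median 0.27, none called), with 24 of 27 higher in wildtype and 22 of 27 lower in knockout livers, untested. Without wildtype D the median was -0.18. Wildtype D alone reached a list mean of 3.12 log2 CPM, against 1.57 to 2.11 in the other 17 livers.

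**Figure D5:**
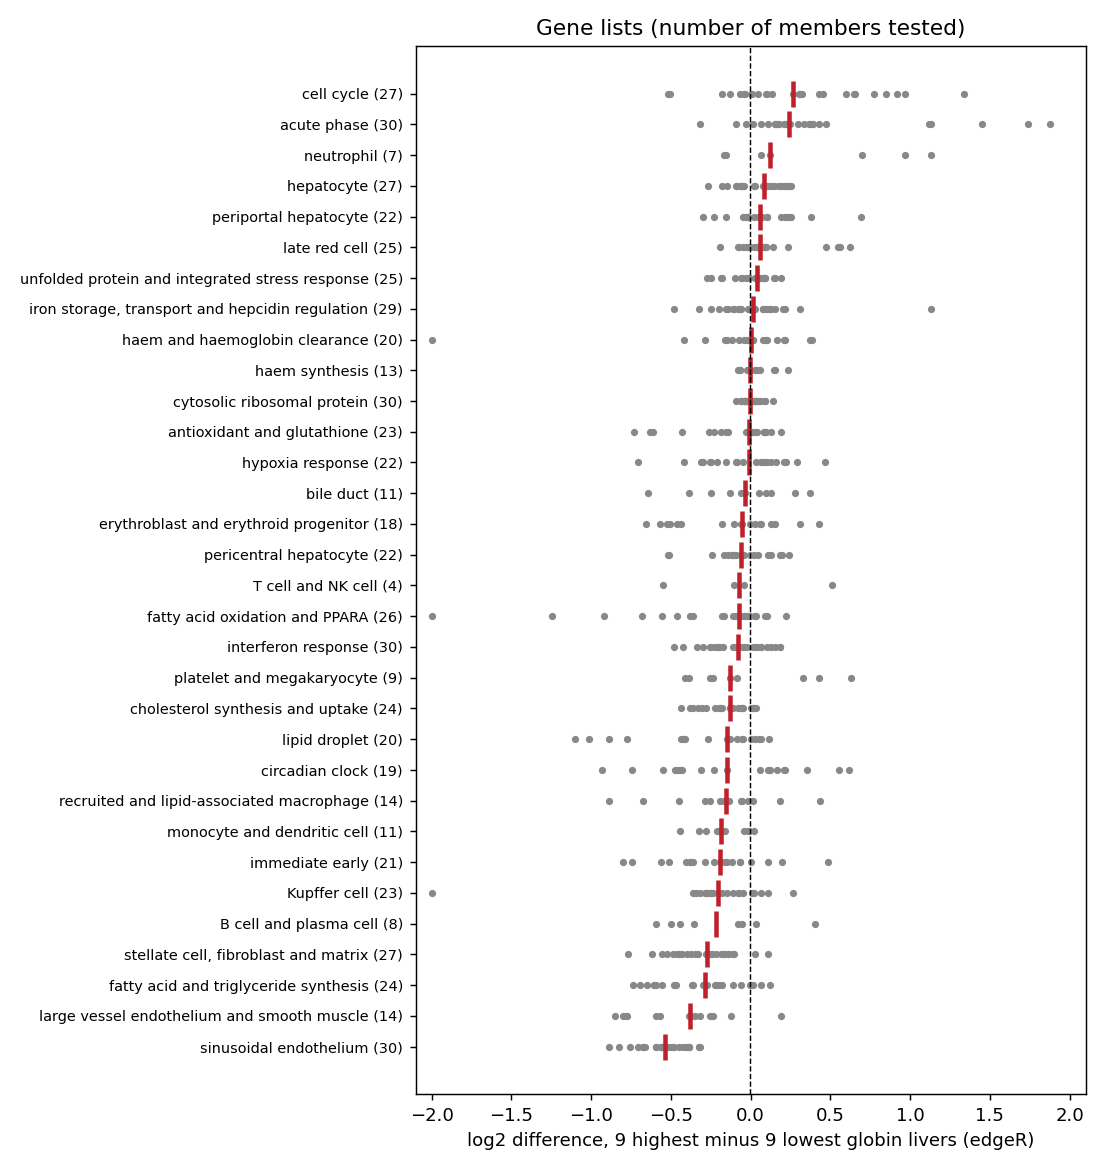
Log2 difference between high and low globin livers (edgeR, genotype as a covariate) for every tested member of 32 gene lists, 1 grey point per gene, with the list's median as a red bar and the median of all genes as a dashed line; 3 points beyond 2 log2 units are drawn at the edge. The sinusoidal endothelial points all lie to the left of the line, and most other lists straddle it.

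No gene that handles haemoglobin, haem or iron was called. Of 20 haem and haemoglobin clearance genes 10 were higher and 10 lower (median -0.00022, none called). Hp, haptoglobin, was at 2617 to 15305 CPM (median 4013) in high and 2332 to 9760 CPM (median 3245) in low livers (0.37, SE 0.35, adjusted p = 0.830), and Hpx, the haem binder hemopexin, at 2419 to 12846 against 2553 to 8223 CPM (0.39, adjusted p = 0.771). The groups overlapped for both genes, and wildtype G was the highest liver for both genes. Lrp1, the hemopexin receptor, was at 0.21 (adjusted p = 0.625). Hmox1, the haem-degrading oxygenase, was at 10.9 to 58.6 CPM (median 15.1) in high and 12.6 to 32.3 CPM (median 22.7) in low livers.

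Cd163, the deleted receptor, was at 6.64 to 15.8 CPM in the 3 wildtype high and 5.06 to 14.9 CPM in the 6 wildtype low livers, so the ranges overlapped almost throughout. Spic, a transcription factor that drives iron-recycling macrophages, was at 0.278 to 1.76 CPM (median 0.978) in high and 0.832 to 196.8 CPM (median 1.77) in low livers (-3.75, SE 1.67, adjusted p = 0.634). The low group's excess sat in wildtype L and M, at 172.8 and 196.8 CPM, and the other 7 low livers were at most at 2.00 CPM. Outside the ranking, wildtype chow B, C and D also held much Spic, at 191.3, 288.4 and 98.4 CPM. The other chow livers were at most at 2.59 CPM (knockout chow B).

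Of 29 iron genes 15 were higher and 14 lower (median 0.013, none called). Hamp, which encodes hepcidin, was at 117.9 to 443.3 CPM (median 198.1) in high and 51.1 to 505.0 CPM (median 187.7) in low livers (0.20, SE 0.38, adjusted p = 0.922). Slc11a2, an iron importer, was at 0.31 (adjusted p = 0.610) and Steap3, an iron reductase, at 0.22 (adjusted p = 0.653). Of 13 haem synthesis genes 6 were higher (median -0.0023), and Alas1, the enzyme that starts haem synthesis outside red cells, was at 68.8 to 455.8 CPM in high and 66.0 to 543.0 CPM in low livers.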

How the data were processed

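The values are raw, whole-number counts, deposited for 55416 genes in 39 libraries. The authors made these counts with STAR 2.7.8a and featureCounts 2.0 on GRCm39, per the submitters' processing notes; strand setting, annotation release and handling of multi-mapped reads are not given in the sources used here. Symbols came from a GRCm38 annotation (52083 genes matched), and the promoter coordinates are those of RefSeq on GRCm38.p6, not of the build used for counting. The 37 mitochondrial genes had 0 counts.

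Livers were ranked by raw CPM of 4 globin genes. Those genes were removed, and genes were kept by filterByExpr (minimum count 10, minimum total 15). Libraries were scaled by TMM and tested with edgeR 4.0.16 (R 4.3.3; robust quasi-likelihood, genotype as covariate, Benjamini-Hochberg over all genes tested, threshold 0.05). The SE is the one implied by the F statistic. Printed levels are TMM-scaled CPM over 39 libraries, and log2 list means add 0.5 CPM. Slopes used the log2 globin sum. Alternatives used DESeq2 1.42.0 and limma 3.58.1. The fits were run on simulated counts with known changes, drawn gene by gene without shared cell makeup or library order. That run is a check of the code alone. Permutations used scipy 1.17.1 (Python 3.11.15), and figures matplotlib 3.10.9.

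Some red cell genes are not reported here. The livers, the 32 gene lists and the tests were chosen with earlier results of these data known. Named genes are those called, the 4 members of each list with the smallest p, members of the red cell, haem and iron lists, and the extremes of correlation. Others were chosen after their values were seen: the further members and neighbours of the endothelium, Cd163 in wildtype livers, Alb, Hgf and Reln. P-values set a difference or a slope against the spread between mice of 1 study.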

Additional observations from a re-analysis of the deposited data

Results flagged for a closer look

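In 100 groups of 9 livers (single genes, the globin sum and the mean levels of the endothelial and stellate lists, each in the high and in the low livers), 10 had an extreme liver far from the rest by Dixon's test. Chance marks about 1 in 20 where values are normal and independent. Single genes were taken as CPM without logs and share livers, so the count is no measure of an excess. Wildtype Western diet G was the outlying high liver for 5 genes: Hp at 15305 CPM (next 5730), Hpx at 12846 (next 5002), Slc11a2 at 111.1 (next 76.8), Tent5c at 12.9 (next 6.96) and Hmox1 at 58.6 (next 22.7). Wildtype Western diet E was the highest high liver for Abcb10 at 51.6 CPM (next 42.7) and Hamp at 443.3 (next 243.3), and knockout Western diet J for Egfl7 at 44.1 (next 34.5). Among the low livers, wildtype N was highest for Car1 at 6.14 CPM (next 5.07) and wildtype L for Il22ra1 at 3.15 (next 1.72).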

How the results depend on the processing

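The endothelial list kept 30 of 30 members on the lower side in 32 alternatives, with medians from -0.75 to -0.44. These alternatives reuse largely the same livers, and ranking by the beta genes gave the same groups, so they are no independent support. The number of genes called between high and low livers, 1 as reported, was 86 with DESeq2 (20 of them on the endothelial list), 74 with limma voom (18), 30 with no filter on low counts, 18 with no genotype term, 5 when ranked by the alpha genes, 17 without wildtype L and M, and 0 with library number as a term. It was 6 without wildtype F, G, L, M and N, chosen after seeing the data, as were those without knockout E and with log2 library total as a term. With 1 liver left out it was 0 to 52: 0 without wildtype D or E, 52 without knockout J and 26 without wildtype G. For the 28-liver slope, 0 as reported, it was 7 with no filter, 2 with limma voom and 1 without wildtype F, G, L, M and N. For the chow slope it was 0 to 3, with 3 without wildtype E.

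Single values that turned sign were those of Hamp with no genotype term (-0.067), Hp without wildtype G (-0.0072, and up to 0.51 with 1 other liver left out), Spic with the replicate block (2.81), and the chow slopes of Flt4 (-0.042 without wildtype C, up to 0.0997 without knockout D) and of Bpgm (-0.036 without wildtype E, up to 0.12 without knockout D). List medians also turned sign: acute phase (-0.035 without wildtype G), cell cycle (-0.18 without wildtype D), Kupffer cell (to 0.090 with the replicate block) and iron (to -0.21 with it), and haem clearance kept its sign in 7 of 32 alternatives. The cause was not tested. Nothing in the labels makes a replicate letter a pair. Over 13 shared letters, same-letter livers had a mean correlation of 0.0068, 3 pairs were over 0.1, and 2 wildtype livers correlated best with their own letter. With the letter as a replicate block, which left 4 residual degrees of freedom, 1 gene was called, not Flt4 (adjusted p = 0.180), and 0 in the 28-liver slope. Of the late red cell list 25 genes passed the filter; for those with a few counts per group a difference may not be detectable at this depth.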

Other observations

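Gene groups outside the vessel wall and the blood held no call between high and low livers. Of 24 fatty acid and triglyceride synthesis genes 20 were on the lower side (median -0.29, none at an unadjusted p under 0.05). Scd1, a stearoyl-CoA desaturase, was at 8342 to 25394 CPM in high and 8044 to 44055 CPM in low livers (-0.56, edgeR adjusted p = 0.682). Immediate early genes had 17 of 21 on the lower side (median -0.19), among them Klf2, a flow-responsive factor of endothelium, at 5.47 to 19.0 against 9.30 to 15.97 CPM (-0.38, adjusted p = 0.711). Fabp4, a fatty acid carrier of fat cells and capillaries, was at 8.26 to 21.8 against 10.3 to 30.9 CPM (-0.78, adjusted p = 0.1001). Among 30 interferon response genes 20 were lower (median -0.078), and ribosomal protein genes were split 15 to 15 (median -0.0035).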
